A study of Homo sapiens with 6 samples.

Results

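The 43 genes described here drive cells from G2 into mitosis and through division. They were named by symbol, not by a threshold on their values, and all 43 were found among the 18798 genes of the count table. Of the 14797 genes with enough counts to be tested, 42 were members. PRC1 was the member that did not pass the filter on low counts. RNA-seq counts came from 6 libraries of U937 cells, a human monocytic line in long use, all transduced with plasmids and selected with geneticin. Control replicates 1 to 3 are separate lines that carry control plasmids. ΔNSPs clones 1 to 3 were depleted together of CTSG, ELANE and PRTN3, which encode the neutrophil serine proteases cathepsin G, elastase and proteinase 3. Each ΔNSPs library stands for 1 clone, and the labels do not say which Control lines are clonal. The comparison asks whether the genes of mitosis differ in level between protease-depleted and Control cells.

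Mitosis begins when CDK1, bound to cyclin A and then cyclin B, is switched on by CDC25 phosphatases. PLK1 and the Aurora kinases then build the spindle, and kinetochores attach the chromosomes to it. The spindle checkpoint holds back the ubiquitin ligase APC/C until every chromosome is attached, after which securin and cyclin B are destroyed and the cell divides. Most of these genes are transcribed late in the cycle, through CCAAT boxes and the CHR (cell cycle genes homology region) in their promoters, under the MuvB complex with B-MYB and FOXM1. In dividing cells their RNA peaks in G2 and M and is low in cells that have left the cycle.

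The libraries held 11476619 to 13782854 counts. The targeted genes were lower in each clone than in any Control line, in CPM (counts scaled to the library total after TMM adjustment, the unit of levels throughout). CTSG read 1895 to 2752 CPM in Control and 136, 110.3 and 45.2 CPM in clones 1 to 3 (adjusted p = 0.0215 in edgeR). ELANE read 969.6 to 1325 CPM against 41.8, 1.89 and 27.8 CPM (0.145). PRTN3 read 147 to 539 CPM against 0.855, 63.2 and 55.3 CPM (0.217), so that depletion was uneven between clones. All 12 myeloid markers examined were in the table, with summed levels of 2041 to 2371 CPM in Control and 1971 to 2861 CPM in ΔNSPs. CEBPA and SPI1, myeloid transcription factors, read 319 to 410.4 CPM and 115 to 153 CPM, while CSF1R read 0.362 to 4.24 CPM and CD68 0.303 to 1.14 CPM. Some other myeloid markers were high in clones 2 and 3, the clones in which several mitosis genes stood apart. FCER1G read 17.9 to 21.7 CPM in Control and 21.0, 62.4 and 54.5 CPM in clones 1 to 3 (adjusted p = 0.181 in edgeR and 0.0122 in DESeq2). ITGB2 read 489 to 578 CPM against 414, 863 and 1041 CPM, and LYZ and TYROBP were likewise highest in clones 2 and 3. Not all markers followed: LAPTM5 stayed within its Control range in clones 2 and 3. CD33 read 72.1 to 72.3 CPM in Control and 59.3 CPM in clone 3. Of the 11 tested markers, 7 had positive and 4 had negative log2 fold changes. Over the 12 markers, low ones such as CSF1R included, the mean log2 ratio to Control was -0.014, 0.79 and 0.53 in clones 1 to 3. Its part in the results below was not tested. Of 16 markers of other cell types, 10 were in the table, at summed levels of 143 to 213 CPM in Control and 180.4 to 205 CPM in ΔNSPs. HBB, a globin gene, at 73.9 to 133 CPM and PECAM1 at 43.8 to 65.1 CPM made up most of that sum in every library, and COL1A2 was at 0 in at least 1. The other markers of that list were not analysed here.

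The mitosis genes were well expressed, and their order is best read per length of transcript. On a scale of CPM per kilobase of exon, as means over the 6 libraries, TPX2, which targets Aurora A to the spindle, had the highest level (196). CDC20, the APC/C activator, followed at 148, and then MYBL2 (111), TOP2A (86.3), CCNA2 (80.8), CCNB1 (78.5) and NUSAP1 (77.1). The ranges over libraries of neighbours in this order overlapped: 153 to 238 for TPX2 and 131 to 171 for CDC20. The lowest tested members were CDC25C at 3.34, ASPM at 5.06 and CENPE at 7.22 CPM per kilobase. The ASPM and CENPE models are long, at 10887 and 9444 bases of exon. The lowest count of a tested member in any library was 126.

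**Figure D1:**
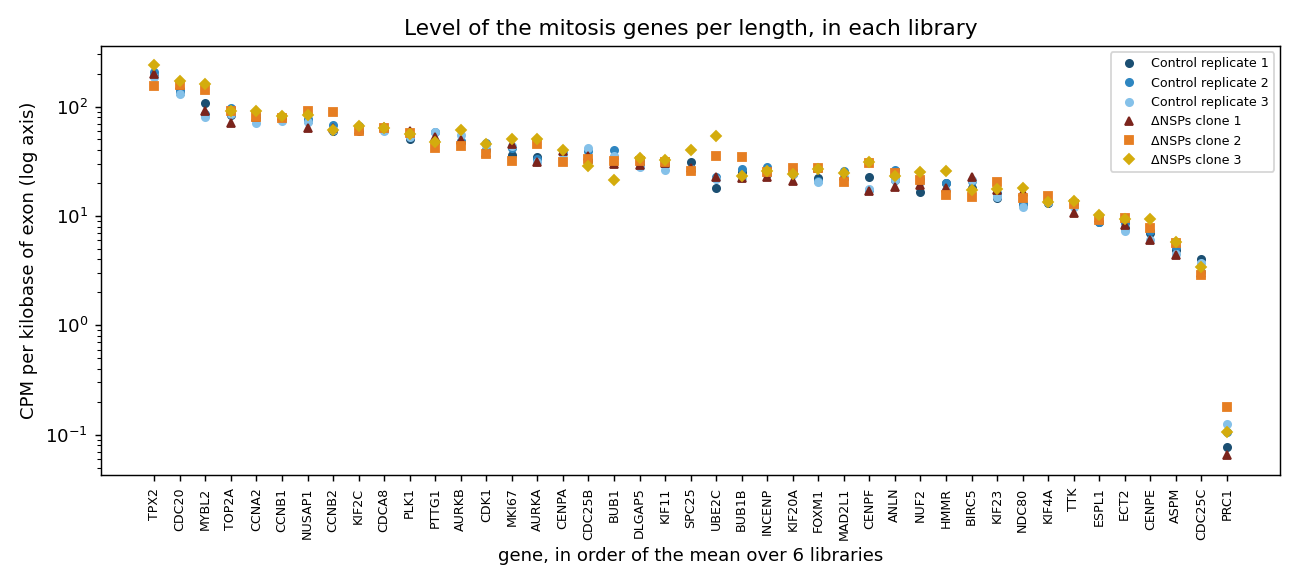
Level of each of the 43 genes, as CPM per kilobase of annotated exon on a log axis, in order of the mean over 6 libraries; each point is 1 library, circles for Control lines and other symbols for ΔNSPs clones. TPX2 has the highest mean (196) and PRC1 the lowest (0.109), and for most genes the 6 points lie close together.

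PRC1, a bundler of antiparallel microtubules in the central spindle, was listed near 0. It had 5, 8 and 8 counts in Control replicates 1 to 3 and 5, 13 and 7 counts in ΔNSPs clones 1 to 3, or 0.356 to 0.984 CPM. Of its 5525 bases of annotated exon, 3181 are shared with the same-strand gene model AC068831.7 and 406 with the antisense gene PRC1-AS1. PRC1-AS1 read 41.1 to 60.6 CPM and AC068831.7 read 3.14 to 7.72 CPM. How reads in shared exons were counted is not given in the sources used here, so the PRC1 count is uncertain and no fold change is given. Overlaps of fewer bases touched other members. FOXM1 shares 781 exon bases with ITFG2 on the opposite strand, and PLK1 shares 553 with the antisense gene AC008870.3. ITFG2 read 64.5, 52.0 and 60.0 CPM in Control and 78.4, 66.5 and 61.7 CPM in the clones. AC008870.3 read 45.6, 55.5 and 49.6 CPM against 60.3, 58.5 and 60.5 CPM, all clones above all Control lines. Whether such reads entered the counts of FOXM1 and PLK1 was not tested. NUSAP1 shares 1787 of its 2875 exon bases with AC087721.2 on its own strand, and BUB1B shares 457 with BUB1B-PAK6 on its own strand. The counts of NUSAP1 and BUB1B are thus uncertain as well.

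Most members share 2 short promoter elements that the list of symbols did not use. RefSeq promoter windows (GRCh38.p14, 250 bases before to 50 after a start) were at hand for 37 of the 43 genes, 47 windows in all. The CHR hexamer was searched as TTTGAA or TTTAAA and the CCAAT box as CCAAT, both on either strand; no whole match can lie inside another, though their ends can overlap. A CHR hexamer stood in 78.7% of the members' windows, against 24.0% of all 35116 promoter windows and 17.1% of the windows of tested genes. A CCAAT box stood in 74.5% of the members' windows, against 34.6% and 34.5%. Both stood in 61.7%, against 9.27% and 6.63%. Windows of 1 gene can overlap, and a match is no evidence of binding.

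The CHR sites below, 30 bases each on the strand of the gene, are shown because they carry this shared feature in genes of different roles, from cyclins to kinetochore and motor proteins. Capitals mark the hexamer.
CCNB1 (chr5:69167108-69167137, + strand): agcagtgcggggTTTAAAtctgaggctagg
CCNB2 (chr15:59105105-59105134, + strand): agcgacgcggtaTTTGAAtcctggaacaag
PLK1 (chr16:23678848-23678877, + strand): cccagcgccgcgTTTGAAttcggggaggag
BUB1B (chr15:40161034-40161063, + strand): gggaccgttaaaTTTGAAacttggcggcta
KIF4A (chrX:70290058-70290087, + strand): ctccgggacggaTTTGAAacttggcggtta
NUF2 (chr1:163321958-163321987, + strand): ggaggcggcaagTTTGAAaagtgatgacgg
ASPM (chr1:197146659-197146688, - strand): ggaggcggcaagTTTAAAcagagtcaaaac
DLGAP5 (chr14:55191565-55191594, - strand): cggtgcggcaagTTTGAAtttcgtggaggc
The sites of BUB1B and KIF4A share a run of 16 bases, those of NUF2 and ASPM 15 and those of NUF2 and DLGAP5 14.

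Longer stretches are shown for CDC20, CENPF, BUB1 and MYBL2, whose levels are described below and whose promoters differ in these elements. Each is the part of the 250 bases before the start that lies outside annotated exons. Capitals mark CCAAT boxes and CHR hexamers on either strand.
CDC20 (chr1:43358731-43358954, + strand): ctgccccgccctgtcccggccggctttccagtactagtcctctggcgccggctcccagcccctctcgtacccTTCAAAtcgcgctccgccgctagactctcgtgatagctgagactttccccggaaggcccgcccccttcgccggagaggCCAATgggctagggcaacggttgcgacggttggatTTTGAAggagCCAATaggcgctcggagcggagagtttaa
CENPF (chr1:214602945-214603194, + strand): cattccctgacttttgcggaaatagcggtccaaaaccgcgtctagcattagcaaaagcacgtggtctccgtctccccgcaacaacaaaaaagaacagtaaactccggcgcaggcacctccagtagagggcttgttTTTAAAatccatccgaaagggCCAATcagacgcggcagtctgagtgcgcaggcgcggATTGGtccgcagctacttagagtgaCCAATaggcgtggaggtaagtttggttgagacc
BUB1 (chr2:110678115-110678313, - strand): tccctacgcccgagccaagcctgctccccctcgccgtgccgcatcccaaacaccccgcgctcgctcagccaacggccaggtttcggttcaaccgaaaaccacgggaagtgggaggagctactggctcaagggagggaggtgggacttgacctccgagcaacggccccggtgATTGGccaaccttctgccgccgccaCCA
MYBL2 (chr20:43666864-43667018, + strand): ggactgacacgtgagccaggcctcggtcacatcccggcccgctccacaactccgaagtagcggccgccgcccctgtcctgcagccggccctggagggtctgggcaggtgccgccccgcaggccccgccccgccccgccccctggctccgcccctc
In the full windows, CDC20 held 2 CCAAT boxes and 2 CHR hexamers, and CENPF held 4 and 2. BUB1 held 2 CCAAT boxes and 0 CHR hexamers, the last of the boxes running past the end of the stretch shown. MYBL2, the gene of B-MYB, held 0 of either.

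As a group the mitosis genes stood at nearly the same level in ΔNSPs and Control cells. With edgeR's quasi-likelihood test, 0 of the 42 tested members passed an adjusted p of 0.05, against 0.0203% of all tested genes (0.00676% higher and 0.0135% lower in the clones). Over all genes edgeR made few calls and missed ELANE and PRTN3, so its count of 0 says little about equal levels. With DESeq2 0 members passed, against 3.98% of the genes it tested (1.91% higher and 2.07% lower). The median log2 fold change, ΔNSPs minus Control, was 0.08 over the members and 0.0023 over all tested genes. It lay within 0.5 of 0 for 40 of the 42, or 95.2%, against 89.5% of genes whose mean was 10 CPM or more. For 40 members the 95% confidence interval stayed within a 2-fold change either way, and UBE2C and MYBL2 were the others. The log2 fold change was positive for 27 of the 42, or 64.3%, against 50.3% of all tested genes, a difference that was not tested. In these bulk libraries a change in the share of cells in mitosis and a change in RNA per cell cannot be told apart.

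At an unadjusted p under 0.05, 6 members were higher and 1 was lower in ΔNSPs, or 16.7% of the 42, against 17.8% of all tested genes. By direction, 14.3% of the members were higher and 2.38% lower, against 9.23% and 8.6% of all tested genes. The groups did not overlap for 9 members, or 21.4%, against 23.9% of all tested genes. In 8 of the 9, or 19.0% of the members, the clones lay above the Control lines, against 12.2% of all tested genes. In BUB1, 2.38% of the members, they lay below, against 11.7%. Both shares were near those of the whole table with directions pooled, and more of the members than of all genes stood on the higher side, a difference that was not tested. Among genes whose mean was 10 CPM or more, as it was for every tested member, 20.9% had such a p, 11.1% higher and 9.82% lower. For 26.6% of those genes the groups did not overlap, with the clones above for 14.0% and below for 12.6%. The labels call the lines separate and the clones independent, and the p-values treat all 6 libraries as independent. Clones 2 and 3 shared shifts of neighbouring genes around some members, described below. Deviations also ran across the groups, Control replicate 1 with clones 2 and 3 (correlations of 0.26 and 0.22 over genes). Whether the libraries are independent was not tested.

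**Figure D2:**
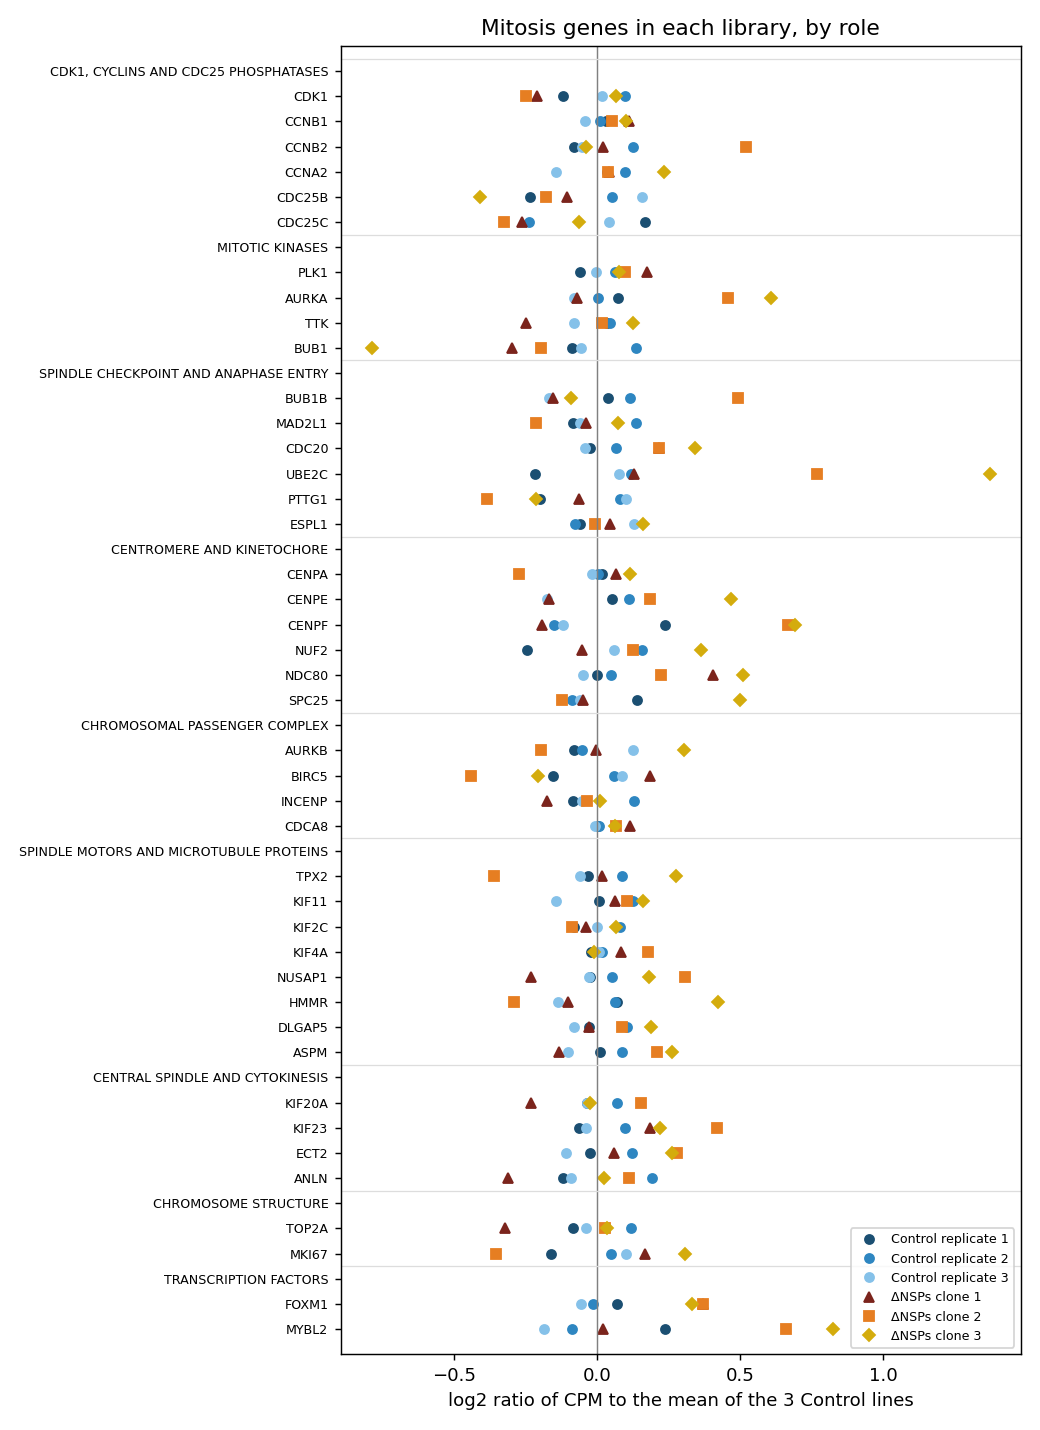
Log2 ratio of CPM to the mean of the 3 Control lines for the 42 tested genes, by role; each symbol is 1 library. Control lines lie near 0 throughout, while ΔNSPs clones 2 and 3 stand apart for UBE2C, MYBL2, AURKA and CENPF and clone 3 stands apart for BUB1.

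The engine of mitosis, CDK1 with its cyclins, showed no call. CDK1, the kinase itself, read 159, 184 and 174 CPM in Control replicates 1 to 3 and 149, 145 and 180.3 CPM in clones 1 to 3. CCNB1, the B cyclin that carries CDK1 into mitosis, read 199, 196 and 189 CPM against 210.01, 202 and 209 CPM, 1.11-fold between the highest and lowest library. All 3 clones lay just above the Control lines, and the log2 fold change of 0.09 had a 95% confidence interval of -0.11 to 0.29. CCNB2, a second B cyclin, read 166, 191 and 169 CPM against 178, 251 and 171 CPM, so that clone 2 alone stood above the rest. The ratio of CCNB1 to CCNB2 counts was 1.02 to 1.22 in the other libraries and 0.802 in clone 2.

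CCNA2, which acts in S phase and at entry to mitosis, had the highest level per kilobase of this role. It read 223, 233 and 197 CPM in Control and 224, 224 and 256 CPM in the clones, with overlapping groups (log2 fold change 0.11 with SE 0.11; adjusted p = 0.632 in edgeR). CDC25B, a phosphatase that activates CDK1, had the lowest p of the role, at 138, 169 and 181 CPM against 151, 144 and 123 CPM. Its log2 fold change was -0.22 (SE 0.13; adjusted p = 0.409 in edgeR), the clones lying within or below the Control range. CDC25C, a second such phosphatase, read 13.4, 10.1 and 12.3 CPM against 9.98, 9.54 and 11.5 CPM, with overlapping groups.

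Among the mitotic kinases, PLK1 lay slightly above and BUB1 below the Control range in all 3 clones, and AURKA lay above it in 2. PLK1, which drives spindle assembly and mitotic exit, had the highest level per kilobase of this role. It read 242, 263 and 252 CPM in Control and 285, 270.2 and 266 CPM in the clones, which all lay above the Control lines (log2 fold change 0.12 with SE 0.09; adjusted p = 0.526 in edgeR). AURKA, the spindle pole Aurora kinase, read 101.4, 96.7 and 91.1 CPM against 91.8, 133 and 147 CPM. Clone 1 lay inside the Control range and clones 2 and 3 above it (log2 fold change 0.36 with SE 0.17; adjusted p = 0.309 in edgeR). TTK, a checkpoint kinase also called MPS1, was at 58.0 ± 2.77 CPM in Control and 56.9 ± 7.40 CPM in ΔNSPs (mean ± SD, n = 3 per group, here and below).

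BUB1, a kinase that recruits the checkpoint to kinetochores, was the member with the lowest fold change. It read 209, 243 and 213 CPM in Control replicates 1 to 3 and 181, 193 and 129 CPM in clones 1 to 3. All clones lay below all Control lines, clone 3 furthest. The log2 fold change was -0.40 (SE 0.16, 95% confidence interval -0.77 to -0.04; edgeR adjusted p = 0.253).

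In the checkpoint and anaphase role, CDC20 and UBE2C read higher in the clones without a call, and the other members differed less. UBE2C, the ubiquitin-conjugating enzyme that works with the APC/C, varied most of all tested members, 3.01-fold between its highest and lowest library. It read 23.0, 28.98 and 28.2 CPM in Control and 29.2, 45.5 and 69.1 CPM in the clones. Clone 1 stood just above the highest Control line, and clones 2 and 3 stood well above it. The log2 fold change was 0.84 (SE 0.28; adjusted p = 0.209 in edgeR, DESeq2 adjusted p = 0.0563), with a 95% confidence interval of 0.19 to 1.49. GENCODE lists processed pseudogenes of UBE2C, so reads could be split between near copies and its count is uncertain. It also lists processed pseudogenes of AURKA, BUB1, CCNB2, CDC20, DLGAP5, MKI67 and PTTG1, whose counts carry the same limit.

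CDC20, which activates the APC/C at anaphase, read 271, 288 and 268 CPM in Control and 320.1, 319.8 and 349 CPM in the clones. All 3 clones lay above all Control lines, by a log2 fold change of 0.26 (SE 0.09; adjusted p = 0.222 in edgeR). BUB1B, the checkpoint protein BUBR1, read 114, 119.8 and 98.5 CPM against 99.4, 156 and 104 CPM, so that clone 2 alone was high. MAD2L1, which with BUBR1 holds CDC20 inactive, was at 136 ± 11.6 CPM against 131 ± 12.9 CPM. PTTG1, securin, was at 111 ± 12.4 CPM against 95.3 ± 10.6 CPM. ESPL1, separase, the protease that securin restrains, was at 81.7 ± 6.55 CPM against 85.6 ± 5.13 CPM.

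At the centromere, the clones and Control lines did not overlap for NDC80, while they overlapped for its partners. NDC80, a subunit of the complex that binds spindle microtubules, read 45.2, 46.8 and 43.7 CPM in Control and 59.9, 52.7 and 64.3 CPM in the clones. The groups did not overlap, at a log2 fold change of 0.38 (SE 0.11, 95% confidence interval 0.13 to 0.63; edgeR adjusted p = 0.178). NUF2 and SPC25, subunits of the same complex, overlapped between groups. NUF2 was at 66.2 ± 9.34 CPM in Control and 73.8 ± 10.7 CPM in ΔNSPs. SPC25 read 57.1, 48.8 and 49.8 CPM against 50.1, 47.7 and 73.4 CPM, high in clone 3. Whether the fold change of NDC80 differs from those of its partners was not tested.

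CENPA, the histone H3 variant that marks centromeres, had the highest level per kilobase of the centromere genes. It read 74.9, 74.2 and 73.1 CPM in Control and 77.4, 61.3 and 80.2 CPM in the clones (log2 fold change -0.02 with SE 0.12; adjusted p = 0.942 in edgeR). CENPF, a large kinetochore and nuclear matrix protein, read 266, 203 and 208 CPM against 197, 358 and 364 CPM. Clone 1 was the lowest library, while clones 2 and 3 were far above every Control line (log2 fold change 0.44 with SE 0.23; adjusted p = 0.353 in edgeR). CENPE, a kinetochore motor, was at 63.9 ± 6.47 CPM against 72.6 ± 15.7 CPM, clone 3 being the highest library at 88.4 CPM.

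The chromosomal passenger complex, which corrects wrong attachments and later guides cytokinesis, had log2 fold changes of -0.13 to 0.08. CDCA8, its subunit borealin, had both the lowest p and the highest level per kilobase there. It read 149.7, 150.4 and 149 CPM in Control and 162, 157 and 156 CPM in the clones. All clones lay above all Control lines (log2 fold change 0.08 with SE 0.09; adjusted p = 0.646 in edgeR). AURKB, its kinase, was at 112 ± 8.92 CPM against 116 ± 20.4 CPM, and INCENP, its scaffold, at 115 ± 9.37 CPM against 109.8 ± 7.22 CPM. BIRC5, survivin, read 69.0, 79.9 and 81.5 CPM against 87.3, 56.6 and 66.5 CPM, its highest and lowest libraries both being clones.

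Spindle motors and microtubule proteins gave 8 members, whose log2 fold changes ran from -0.02 to 0.12 around a median of 0.08. TPX2 read 693, 752 and 679 CPM in Control and 716, 551 and 857 CPM in the clones. The means were equal, at 708 CPM in each group, while clones 2 and 3 were the lowest and highest libraries (SD 38.8 CPM in Control and 153 CPM in ΔNSPs). KIF11, the motor that pushes spindle poles apart, had the lowest p of the role, at 142, 154 and 128 CPM against 147, 152 and 158 CPM (log2 fold change 0.11 with SE 0.10; adjusted p = 0.609 in edgeR).

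The other 6 spindle genes also overlapped between groups. KIF2C, a microtubule depolymerase at centromeres, was at 231 ± 13.1 CPM in Control and 228 ± 12.5 CPM in ΔNSPs. KIF4A, a chromosome-bound motor, was at 60.7 ± 0.799 CPM against 64.4 ± 4.21 CPM, and DLGAP5, also called HURP, at 109 ± 7.38 CPM against 116 ± 8.64 CPM. HMMR, a spindle assembly protein, read 61.5 CPM in clone 2 and 100.7 CPM in clone 3, on either side of all other libraries. NUSAP1 read 182 CPM in clone 1 and 264 CPM in clone 2, likewise the lowest and highest libraries. ASPM, which acts at spindle poles, was at 52.8 ± 3.41 CPM against 57.4 ± 8.15 CPM.

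For cytokinesis, KIF23 was the member whose groups did not overlap. KIF23, the motor of the centralspindlin complex, read 96.0, 107 and 97.6 CPM in Control and 114, 134 and 117 CPM in the clones, highest in clone 2 (log2 fold change 0.28 with SE 0.11; adjusted p = 0.245 in edgeR). KIF20A, a central spindle motor with the highest level per kilobase of this role, read 95.2, 102 and 95.3 CPM against 83.1, 109 and 95.9 CPM. ECT2, the exchange factor that activates RhoA at the cleavage furrow, was at 43.3 ± 3.54 CPM against 49.9 ± 4.12 CPM. ANLN, anillin, which scaffolds the contractile ring, was at 138 ± 17.1 CPM against 133 ± 19.9 CPM.

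The classic proliferation markers TOP2A and MKI67 overlapped between groups. TOP2A, the topoisomerase that untangles sister chromatids, read 538, 619 and 555 CPM in Control and 456, 581 and 585 CPM in the clones, lowest in clone 1 (log2 fold change -0.08 with SE 0.13; adjusted p = 0.773 in edgeR). MKI67, the Ki-67 antigen that coats mitotic chromosomes, read 463, 536 and 556 CPM against 581, 406 and 641 CPM. Clone 2 was the lowest library and clone 3 the highest, and the log2 fold change of 0.07 had a 95% confidence interval of -0.33 to 0.46.

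The transcription factors FOXM1 and MYBL2, which activate many of the other members, both read higher in ΔNSPs without passing either test. FOXM1 had the lowest unadjusted p of the 42 members (0.00439 in edgeR). It read 109, 102 and 99.5 CPM in Control and 134, 134 and 130.2 CPM in the clones, which were alike and all above the Control lines. The log2 fold change was 0.36 (SE 0.09, 95% confidence interval 0.15 to 0.57; edgeR adjusted p = 0.171, DESeq2 adjusted p = 0.0532). MYBL2 read 296, 236 and 221 CPM against 255, 397 and 444 CPM. Clone 1 lay inside the Control range and clones 2 and 3 lay above it (log2 fold change 0.54 with SE 0.21, 95% confidence interval 0.06 to 1.02; edgeR adjusted p = 0.248).

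**Figure D3:**
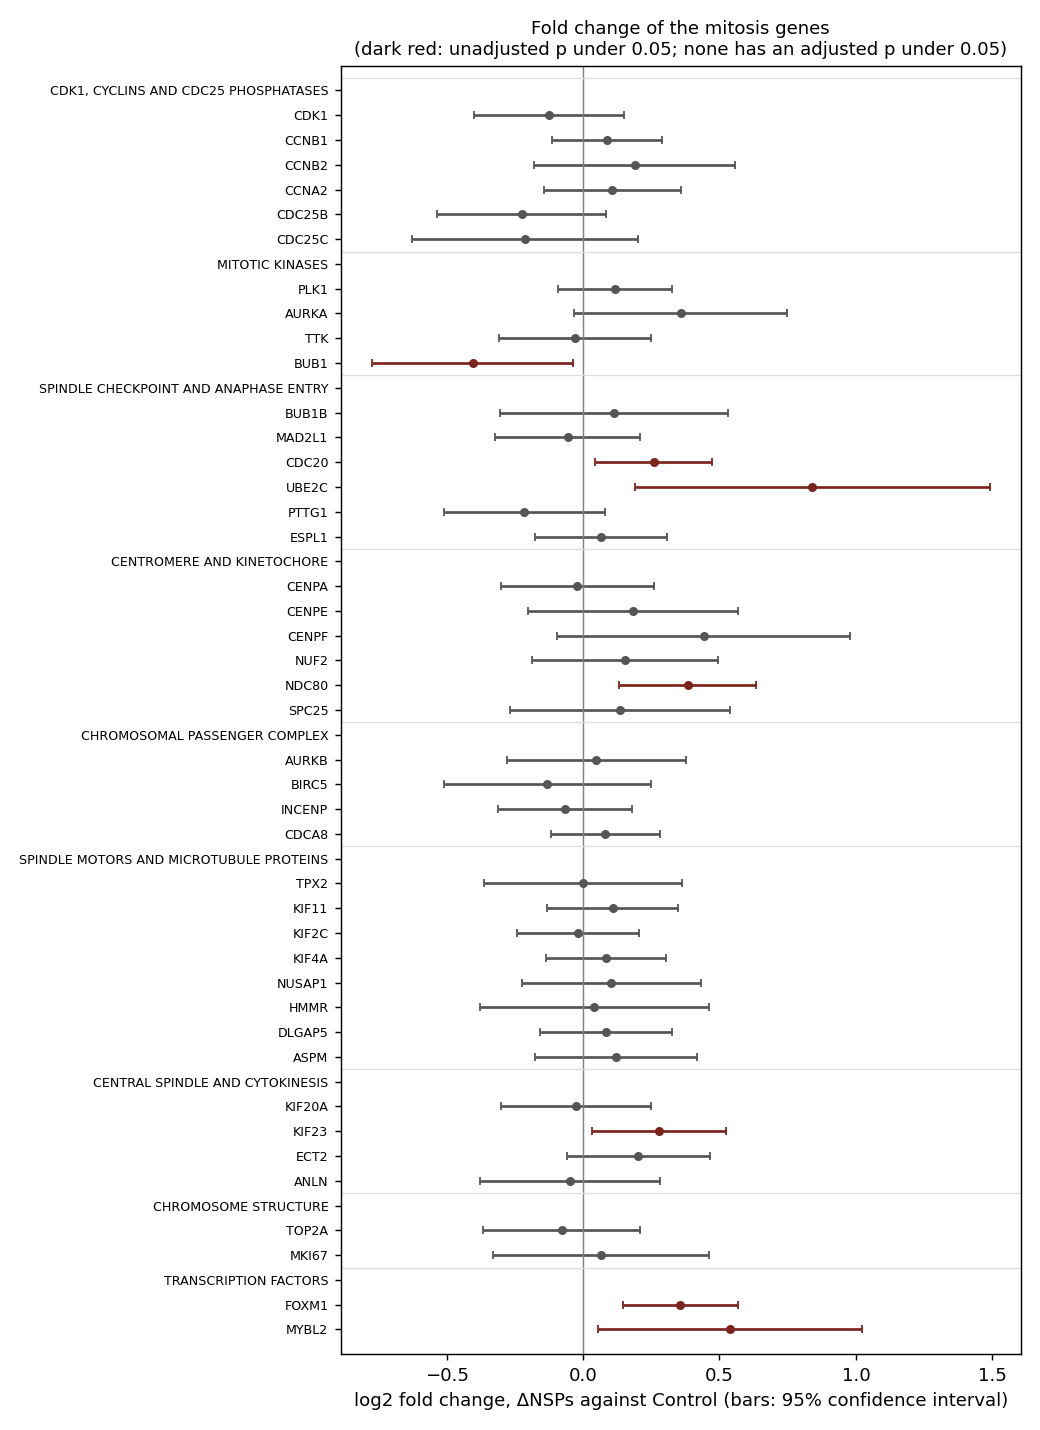
Log2 fold change of each tested mitosis gene, ΔNSPs against Control, with its 95% confidence interval from edgeR; dark red marks the 7 genes at an unadjusted p under 0.05. Most intervals cross 0 and lie within 0.5 of it, and UBE2C (0.84) and MYBL2 (0.54) reach furthest to the right.

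The clones differed among themselves more than the Control lines did. The SD of log2 CPM was larger in ΔNSPs than in Control for 30 of 42 members, or 71.4%, as it was for 65.9% of all tested genes. Its median over the members was 0.11 in Control and 0.19 in ΔNSPs. The mean log2 CPM of the members, set against the Control mean, was -0.021 in clone 1, 0.077 in clone 2 and 0.19 in clone 3, and between -0.031 and 0.056 in the Control lines. The group difference was 0.08 log2 units, and 0.06 over the 37 tested members off chromosome 20. It was 0.13 without clone 1 and 0.028 without clone 3.

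Some of the clone-specific levels went with those of the genes around them on the chromosome, and others did not. For each member, the median log2 ratio to Control was taken over expressed genes (mean of at least 8 CPM) within 10 Mb on either side. In clone 2 these neighbours were shifted by at least 0.3 for 9 members, and all 9 members were shifted the same way. The other 33 members had ratios between -0.43 and 0.37 there, and 5 of the 14 members with a ratio of at least 0.3 in size had no such shift around them. In clone 3 the neighbours were shifted for 5 members, of which 4 went the same way. The other 37 members had ratios between -0.40 and 0.70 in clone 3, and 11 of the 15 with a ratio of at least 0.3 in size had no such shift. The ratio of 0.70 was that of CENPF, whose neighbours in clone 3 were at 0.28, just under the limit of 0.3. In clone 1 the neighbours were shifted for 0 members, while 4 members had a ratio of at least 0.3 in size. Of all tested genes, 13.2% had such shifted neighbours in clone 2, 9.79% in clone 3 and 0 in clone 1. Across the 42 members, which partly share neighbours and come from the same libraries, Pearson's r between a member's ratio and its neighbours' was 0.068 in clone 1, 0.68 in clone 2 and 0.75 in clone 3 (Spearman's rho 0.10, 0.51 and 0.37), given as a description.

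Chromosome 20 held 5 members, and its long arm those with the largest ratios. Around AURKA (chromosome 20, 56369389 to 56392337), 83 neighbours had a median log2 ratio of 0.04, 0.61 and 0.53 in clones 1, 2 and 3, and AURKA itself had -0.07, 0.46 and 0.60. Around MYBL2 (43667019 to 43716496) the neighbours were at -0.05, 0.52 and 0.45, and MYBL2 at 0.03, 0.67 and 0.83. Around UBE2C (45812576 to 45816957) they were at -0.05, 0.57 and 0.46, and UBE2C at 0.13, 0.76 and 1.36. UBE2C in clone 3 was thus well above its neighbours. TPX2 (31739271 to 31801805) went its own way, at -0.36 in clone 2 where its neighbours were at 0.16. CDC25B (3786772 to 3806121) was at -0.40 in clone 3, where its neighbours were at -0.22.

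Chromosomes 15, 2, 10 and 1 held the other members with shifted neighbours. On chromosome 15, in clone 2, CCNB2 had a log2 ratio of 0.52 where its neighbours had 0.41, BUB1B 0.49 where they had 0.50, KIF23 0.42 where they had 0.40 and NUSAP1 0.31 where they had 0.49. In clones 1 and 3 the neighbours of these 4 genes stood between -0.07 and 0.02. BUB1 (chromosome 2, 110637698 to 110678114) was at -0.78 in clone 3 and its 51 neighbours at -0.55. In clones 1 and 2 those neighbours were at -0.01 and 0.01, and BUB1 was still at -0.29 and -0.19. MKI67 (chromosome 10, 128096659 to 128126385) was at -0.35 in clone 2 and its neighbours at -0.66. CENPF (chromosome 1, 214603195 to 214664588) was at 0.68 and 0.70 in clones 2 and 3, and its neighbours at 0.32 and 0.28. ASPM was the exception, at 0.26 in clone 3 where its neighbours were at -0.32.

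FOXM1, CDC20 and NDC80 had no such shift around them. FOXM1 (chromosome 12, 2857681 to 2877155) had log2 ratios of 0.37, 0.37 and 0.33 in the 3 clones, and its neighbours 0.06 at most. CDC20 (chromosome 1, 43358955 to 43363203) had 0.22, 0.22 and 0.34, and its neighbours 0.04 at most. NDC80 (chromosome 18, 2571511 to 2616635) had 0.40, 0.22 and 0.50, and its 32 neighbours 0.07 at most.

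**Figure D4:**
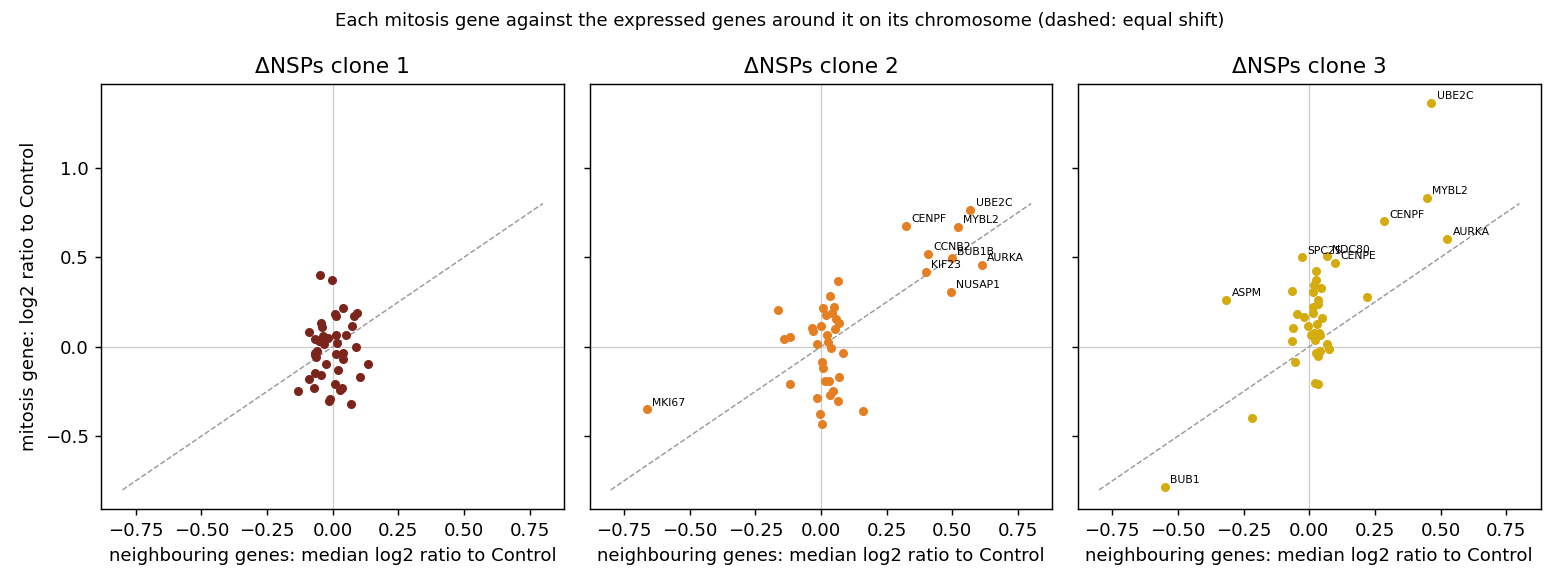
Log2 ratio to Control of each tested mitosis gene (vertical axis) against the median ratio of the expressed genes within 10 Mb (horizontal axis), 1 panel for each ΔNSPs clone; the dashed line marks equal shifts. In clone 1 the neighbours lie near 0, and in clones 2 and 3 UBE2C, MYBL2, AURKA and CENPF lie to the upper right, with BUB1 at the lower left in clone 3.

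Without clone 1, 4 members passed in edgeR, all higher in ΔNSPs: UBE2C, MYBL2, AURKA and CENPF. That is 9.52% of the members, where 3.04% of all tested genes passed as higher, 3.13% as lower and 6.17% in either direction. The log2 fold changes were 1.09 for UBE2C (edgeR adjusted p = 0.0264), 0.74 for MYBL2 (0.0323), 0.53 for AURKA (0.0352) and 0.67 for CENPF (0.0365). Around all 4 the neighbours stood above Control in clones 2 and 3, by 0.28 to 0.61. This fit treats clones 2 and 3 as independent. When each gene was scaled by the shift of its neighbours, again without clone 1, 0 members passed, while 7.12% of all tested genes did (3.01% higher and 4.11% lower). The log2 fold changes were then 0.58 for UBE2C (edgeR adjusted p = 0.143), 0.26 for MYBL2 (0.206), -0.04 for AURKA (0.847) and 0.38 for CENPF (0.0675). Other members moved up under that scaling: ASPM went from 0.23 to 0.47, with the lowest adjusted p of the members (0.0502), and MKI67 from 0.0065 to 0.34 (0.0681). With all 6 libraries and the same scaling, 0 members passed, against 0.027% of all tested genes (0.00676% higher and 0.0203% lower). FOXM1 had adjusted p-values between 0.0532 and 0.532 over all alternatives. Leaving out any other library gave 0 calls among the members.

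The wider machinery of division held no edgeR call either, with most fold changes small and positive. Of 69 other mitosis genes, all tested, 0 passed in edgeR. The unadjusted p was under 0.05 for 9 that were higher and 2 that were lower, around a median of 0.12 on the log2 scale. These are 13.0% and 2.90% of the list, against 9.23% and 8.6% of all tested genes. Fold changes were positive for 52 of the 69, or 75.4%, against 50.3% of all tested genes, and the clones lay above all Control lines for 23.2%, against 12.2%. LMNB1, which encodes lamin B1, was their DESeq2 call, or 1.45% of the list as higher, against 1.91% of the genes DESeq2 tested. It read 195, 160.1 and 149.8 CPM in Control and 218, 233 and 282 CPM in the clones (log2 fold change 0.54 with SE 0.14; DESeq2 adjusted p = 0.0307). KNTC1, a kinetochore protein that helps bring dynein to the kinetochore, had the lowest p, at 67.2, 65.1 and 70.3 CPM against 52.0, 52.7 and 51.5 CPM (edgeR adjusted p = 0.171). Of 16 APC/C genes 0 passed, with a median of 0.07. ANAPC15, with the lowest p there, was at a log2 fold change of 0.49 (SE 0.18; adjusted p = 0.224 in edgeR).

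Regulators upstream of the members held 1 DESeq2 call. Of 11 tested genes of the MuvB, DREAM and RB family 0 passed in either test, with a median log2 fold change of 0.03. TFDP2, a partner of E2F factors, had the lowest p, with a log2 fold change of -0.58 (SE 0.19; adjusted p = 0.200 in edgeR). Of 13 CDK inhibitors and G1 cyclins 0 passed in edgeR and 1 rose in DESeq2, where 3.98% of all genes passed. That gene was CCND3, cyclin D3, at 94.6, 112 and 108 CPM in Control and 171, 219.6 and 178 CPM in the clones (log2 fold change 0.85 with SE 0.13; adjusted p = 0.145 in edgeR and 1.3e-05 in DESeq2). The median of the 13 was -0.07. At an unadjusted p under 0.05, 3 of them stood higher and 1 stood lower, or 30.8% together, against 17.8% of all tested genes.

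Genes of DNA replication, the phase before, served as the closest comparison. Of 40 such genes 0 passed in edgeR or DESeq2. The unadjusted p was under 0.05 for 7 that were higher (17.5%, against 9.23% of all tested genes) and 2 that were lower (5%, against 8.6%). Their median was 0.06 on the log2 scale, against 0.08 for the mitosis genes. Relative to the Control mean, their mean log2 CPM was 0.17, -0.045 and 0.11 in clones 1 to 3. Over all 43 mitosis genes the same measure was -0.032, 0.091 and 0.19. In clone 1 the replication genes stood higher than the mitosis genes, and in clones 2 and 3 lower, a difference that was not tested. UHRF1, with the lowest p of the replication genes, had a log2 fold change of 0.47 (SE 0.15; adjusted p = 0.198 in edgeR). Its neighbours were shifted by 0.21 and 0.49 in clones 2 and 3, and scaled by them its log2 fold change was 0.23.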

How the data were processed

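RNA-seq libraries of 3 Control lines and 3 ΔNSPs clones were compared. The authors deposited raw counts per Ensembl gene; the submitters' processing notes name build GRCh38.p12 and, with no roles, HTSeq 0.11.1, HISAT2 2.0.0, FastQC and SAMtools 1.5.9. For the annotation release and strand setting, the sources used here give nothing. Symbols, positions and exon lengths came from GENCODE 29 (18771 of 18798 identifiers matched) and promoters from RefSeq. The test was edgeR 4.0.16 (R 4.3.3; TMM, filterByExpr, quasi-likelihood, Benjamini-Hochberg over 14797 genes, two-sided), with SE and 95% confidence intervals derived from the test statistic; DESeq2 1.42.0 and limma 3.58.1 (voom) were alternatives, all tested on simulated data. Mean log2 CPM used a prior count of 2, ratios to Control a pseudocount of 0.5 CPM. Members and lists were chosen with earlier results of these data known. Every member is named; values per library go to those with the lowest p or the highest level per kilobase in their role, the largest ratios between libraries, and others of interest chosen after their values were seen. Scaling by neighbours within 10 Mb (at least 20 genes) was chosen after the data were seen.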

Additional observations from a re-analysis of the deposited data

How the results depend on the processing

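The count of 0 members held in edgeR with other size factors, without the low-count filter, with at least 1 CPM in 3 libraries and with the neighbour scaling, in DESeq2 and in limma voom. Leaving out single libraries gave 0 to 4 members, the 4 without ΔNSPs clone 1. Over all genes edgeR called 3, limma voom 1 and DESeq2 515, leaving out single libraries gave 0 to 928, and the neighbour scaling without clone 1 gave 1072. The 5 other lists on the cell cycle held 69, 16, 11, 40 and 13 tested genes. Together they had 0 calls in edgeR, 2 in DESeq2, 0 to 8 with a library left out and 13 with the neighbour scaling without clone 1. The 8 came without clone 1. Of all genes tested, 3.98% passed in DESeq2, 6.17% without clone 1 and 7.12% with the neighbour scaling without clone 1. Of the 16 members given by rule and tested, 4 with log2 fold changes near 0 changed sign. CENPA, -0.022 with all libraries, ran from -0.094 to 0.091 with a library left out, the latter without clone 2. TPX2 went to 0.041 without Control replicate 2 and 0.15 without clone 2. KIF20A ran from -0.12 (without clone 2) to 0.060 and went to 0.0040 without Control replicate 2, 0.060 without clone 1 and 0.010 with the neighbour scaling as well, and TOP2A to 0.024 without clone 1. None of these passed in edgeR, and the cause was not tested. With the replicate number as a block edgeR called 0 genes and 0 members, and 1779 genes had an unadjusted p under 0.05. Libraries with the same number did not deviate together (correlations of -0.43, -0.16 and -0.14 over genes), so the numbers do not pair the samples. Across numbers the correlations ran from -0.18 to 0.29. Clone 1 had 0.27 and 0.29 with Control replicates 2 and 3, and Control replicate 1 had 0.26 and 0.22 with clones 2 and 3. Deviations within a group balance each other, so these values are tied together, and their cause was not tested. A gene with 3 counts would read 0.214 to 0.260 CPM at these depths, a limit that bears on PRC1 alone among the members.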
